A study of Mus musculus with 2 samples.

Results

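Olfactory receptor genes lie in long tandem arrays, and the positions described here are 3 such arrays on mouse build mm9: chr2:85000000-90200000 (5.2 Mb), chr7:109600000-115900000 (6.3 Mb) and chr9:37500000-39900000 (2.4 Mb). A peak, a stretch where sequenced fragments holding 5-hydroxymethylcytosine (5hmC) piled up, was taken as a member when its midpoint lay in a window. Membership was thus set by position and by no measured value of a peak, but the windows were chosen with earlier results of these data known. They numbered 180 of 57827 peaks in the AA list and 231 of 63834 in the no-AA list, 411 of 121661 in all. The study pulled down 5hmC-bearing DNA from embryonic stem (ES) cells of mouse strain 129SvEv. The first library came from cells kept 24 h with 100 µM vitamin C (ascorbic acid, AA), and the label of the second names no incubation, so it was placed as the culture without AA. Each of the 2 libraries gave 1 list of peaks, from 11907082 and 18398162 tags (aligned reads kept once per position). The run name in each header is that of the other sample (2 of 2 headers). The lists are called AA and no-AA after the sample each is recorded for. If the headers are right instead, the names are swapped and every difference between the lists changes sign. With 1 library per group no test between groups was possible. Intervals are 95% exact intervals on counts. They cover counting error only, and peaks of 1 library are not replicates.

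Olfactory receptors are G protein-coupled receptors that detect odorants, and a sensory neuron of the nose expresses a single one of them. In ES cells these genes are known to be silent. 5hmC is made from 5-methylcytosine by the Tet dioxygenases, and in mammalian DNA both marks sit mostly at CpG, a C followed by a G. In ES cells 5hmC is best known from enhancers and from the bodies of active genes.

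No annotation of mm9 was used, so the label was not checked against genes in the windows, and no peak below carries a gene name. The order of coding genes in RefSeq (GRCm38.p6) shows what the largest olfactory receptor blocks of these chromosomes hold. On chromosome 2 the block ran from Olfr987 to Olfr1274, between Lrrc55 and Ptprj, with 222 receptor genes and 3 other coding genes (Fads2b, Pramel7 and Pramel6). On chromosome 9 it ran from Olfr160 to Olfr986 with 95 receptor genes and 3 others (Vwa5a, AW551984 and Tmem225). The chromosome 7 block, from Olfr543 to Olfr519 between Rrm1 and Nlrp10, was the most mixed. It held 193 receptor genes in 12 uninterrupted runs and 55 other coding genes, or 77.8% receptors. These others include the beta-globin genes Hbb-bt and Hbb-bs and broadly expressed genes such as Ilk, Taf10 and Tpp1.

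Few CpG lie around the annotated starts of the receptor genes. In the RefSeq promoter table (250 bases before to 50 after the annotated start, GRCm38.p6), 435 of the 510 receptor genes of these blocks had an entry, with a median of 1 CG (quartiles 0 and 2, highest 8). The 3748 other coding genes of the same chromosomes that had an entry held a median of 14 (quartiles 4 and 24). No CG at all was found in 35.4% of the receptor stretches and in 3.44% of the others. The median G+C content was 34.0% against 57.0%. In Olfr988, printed below, the 50 bases after the start open with ATG, so an annotated start can be that of the coding sequence. The counts therefore need not describe receptor promoters, and the 2 sets may be taken at unlike positions. How many starts are of this kind was not tested. The 3 receptor stretches printed here have their block's median count and are the first in gene order that do. Rrm1, the ribonucleotide reductase subunit gene beside the chromosome 7 block, is printed for contrast and was chosen after its sequence was seen. It has 9 CG, below the median of the others. Capitals mark each CG, and the strand is that of the gene.
Olfr988: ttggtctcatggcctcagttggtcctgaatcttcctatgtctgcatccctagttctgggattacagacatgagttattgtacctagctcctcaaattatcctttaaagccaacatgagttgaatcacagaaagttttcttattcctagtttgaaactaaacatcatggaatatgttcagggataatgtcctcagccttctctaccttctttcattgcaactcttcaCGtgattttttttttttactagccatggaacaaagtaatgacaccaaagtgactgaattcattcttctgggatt
Olfr543: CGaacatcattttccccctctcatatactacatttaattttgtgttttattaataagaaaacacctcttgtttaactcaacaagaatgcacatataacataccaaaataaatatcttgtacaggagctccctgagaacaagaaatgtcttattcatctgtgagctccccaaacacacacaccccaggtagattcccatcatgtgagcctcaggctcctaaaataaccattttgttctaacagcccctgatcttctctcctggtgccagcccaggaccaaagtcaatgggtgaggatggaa
Olfr881: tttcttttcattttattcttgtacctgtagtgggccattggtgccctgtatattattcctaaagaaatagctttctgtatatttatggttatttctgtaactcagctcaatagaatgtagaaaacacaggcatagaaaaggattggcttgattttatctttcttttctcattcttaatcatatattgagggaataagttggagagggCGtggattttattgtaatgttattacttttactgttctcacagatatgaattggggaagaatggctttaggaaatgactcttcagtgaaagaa
Rrm1: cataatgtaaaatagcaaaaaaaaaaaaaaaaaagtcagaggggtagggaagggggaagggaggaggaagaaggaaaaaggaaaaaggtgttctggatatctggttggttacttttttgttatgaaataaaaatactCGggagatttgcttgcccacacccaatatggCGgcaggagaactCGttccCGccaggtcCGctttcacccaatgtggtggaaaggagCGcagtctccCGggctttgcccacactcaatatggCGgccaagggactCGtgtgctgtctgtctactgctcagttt
The lists do not show whether any peak lies at these stretches, since their positions belong to another build.

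The first comparison set the number of peaks in the windows beside that in the 5-Mb flanks and the rest of the same chromosomes. All 3 windows held fewer peaks per Mb than their flanks in both lists. Together they had 12.9 AA peaks per Mb (11.1 to 15.0) against 26.6 (24.8 to 28.5) in the flanks, a ratio of 0.487 (0.412 to 0.573). In the no-AA list they had 16.6 (14.5 to 18.9) against 27.7 (25.8 to 29.6), a ratio of 0.600 (0.516 to 0.695). The rest of the chromosomes had 22.5 and 24.4 peaks per Mb, which puts the windows at 0.576 (0.494 to 0.667) and 0.680 (0.594 to 0.775) times that level. This deficit is one of peaks at the authors' cutoff (p of 1e-05) and, over the 3 windows together, was not detected among the peaks of smallest p, which are described further on.

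The chromosome 2 window was the emptiest, with 59 AA and 62 no-AA peaks, or 11.3 and 11.9 per Mb. Its flanks held 247 and 271 peaks in 10 Mb, so the ratios were 0.459 (0.340 to 0.612) and 0.440 (0.328 to 0.582). The chromosome 9 window held 31 and 41 peaks, or 12.9 and 17.1 per Mb. Against its flanks (252 and 283 peaks) the ratios were 0.513 (0.341 to 0.746) and 0.604 (0.424 to 0.840). Its left flank was itself sparse, at 19.8 and 20.6 per Mb against 30.6 and 36.0 in the right one, and the no-AA window differed from that left flank by less than counting error (ratio 0.829, 0.563 to 1.20).

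The chromosome 7 window was the fullest and the one in which the lists differed most. It held 90 AA and 128 no-AA peaks, or 14.3 and 20.3 per Mb. The AA density was 0.478 (0.373 to 0.607) times that of the flanks and 0.715 (0.573 to 0.882) times that of the rest. In the no-AA list these ratios were 0.733 (0.590 to 0.908) and 0.910 (0.756 to 1.09), and the second interval includes 1. The rest of chromosome 7 included a stretch of 7145 kb without a peak of either list, which lowers its density. Against the right flank alone the no-AA ratio was 0.899 (0.693 to 1.17), which also includes 1. Without chromosome 7, the no-AA ratio to the flanks was 0.489 and that to the rest 0.532.

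**Figure D1:**
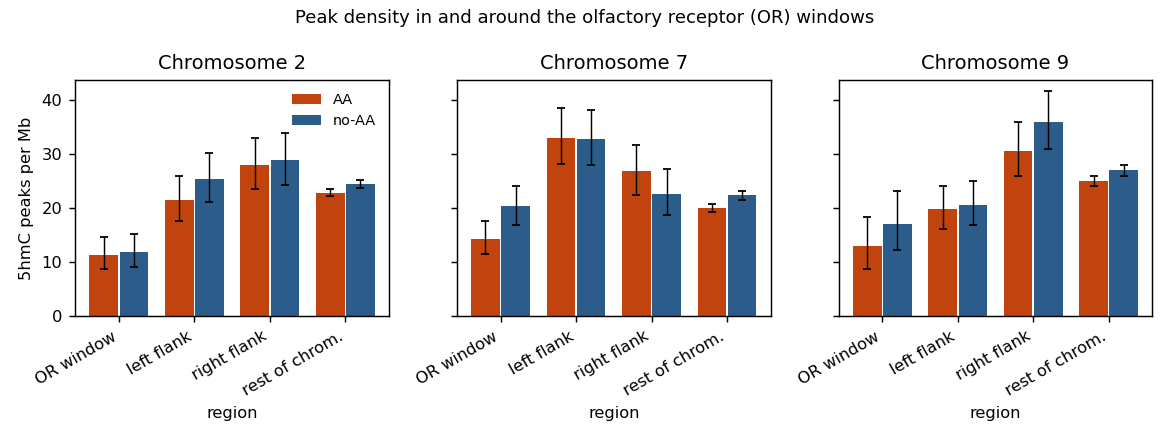
Peaks per Mb (vertical axis, from 0) in each olfactory receptor window, its left and right 5-Mb flanks and the rest of the chromosome, for the AA and no-AA lists. Error bars are 95% Poisson intervals. The windows stand lowest on chromosomes 2 and 9, and on chromosome 7 the no-AA bar, at 20.3, lies near the 22.3 of the rest.

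The peaks in the windows were also short, so the deficit was larger in bases and tags than in peak number. Peaks covered 1.28% (AA) and 1.30% (no-AA) of the windows, against 3.09% and 2.45% of the flanks. Tags inside peaks, per Mb of region and 1000000 kept tags, were 31.2 and 25.4 in the windows against 75.3 and 49.7 in the flanks, or 0.414 and 0.511 times. Adjacent midpoints lay a median of 48.2 kb apart in the AA windows and 23.9 kb in the flanks, and 34.5 kb against 22.6 kb in the other list. The no-AA window of chromosome 7 was the exception, at 24.2 kb against 24.6 kb.

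The peaks were not spread evenly within the windows. They were counted in complete bins of 250 kb with both lists summed. The median bin held 5 peaks on chromosome 2, 8 on chromosome 7 and 6 on chromosome 9, against 14.5, 15 and 14.5 in the flanks. The incomplete last bin of each window was left out, and on chromosome 9 that part held more peaks per kb than any complete bin of the window. On chromosome 9 all 9 complete bins lay below the median of 13 for the rest of that chromosome. On chromosome 2 it was 18 of 20 complete bins (median 12), and on chromosome 7 it was 15 of 25 (median 10). Bins this sparse also exist elsewhere: 28.4% of 1616 bins in the rest of the chromosomes held at most 6 peaks, the median of the window bins, and 15.0% of 120 flank bins did.

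Only complete bins were ranked. On chromosome 2 the fullest, chr2:87500001-87750000, held 8 AA and 7 no-AA peaks, and the emptiest, chr2:86750001-87000000, held 1 and 0. On chromosome 9 these were chr9:38250001-38500000 with 6 and 6, and chr9:37750001-38000000 with 0 and 2. The chromosome 7 window had sharper contrasts, from no peak in chr7:113850001-114100000 to 9 and 12 in chr7:114350001-114600000, a total that 1 other bin equalled. The longest stretch free of any peak was chr2:85535395-85776452 (241 kb), chr7:113458176-113802150 (344 kb) and chr9:37591607-37963212 (372 kb). Longer ones occurred outside the window on each chromosome, 38 of them on chromosome 2, 18 on chromosome 7 and 5 on chromosome 9. The longest outside was 7145 kb on chromosome 7, against 579 kb on chromosome 2 and 537 kb on chromosome 9. Peak-free stretches of at least 100 kb made up 62.6%, 40.8% and 37.3% of the windows on chromosomes 2, 7 and 9, against 25.8%, 32.9% and 19.7% of the chromosome outside.

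Counted over 500 kb, peaks stepped down at the window ends on chromosomes 2 and 9. In the 500 kb outside and inside the left end of the chromosome 2 window the AA list had 17 and 4 peaks and the other 20 and 4. At its right end the counts were 15 and 7, and 16 and 9. At the left end of the chromosome 9 window they were 17 and 2 in the AA and 15 and 5 in the no-AA list, and at the right end 19 and 10, and 26 and 11. At the right ends the change did not sit at the border itself. On chromosome 2 the first 250 kb outside held 4 AA and 2 no-AA peaks, and the next 250 kb held 11 and 14. On chromosome 9 the last part of the window, left out of the bins, held more peaks per kb than any complete bin of the window. At the chromosome 7 window no such step was seen, with 16 and 12, and 17 and 13, at the left end and 10 and 13, and 11 and 13, at the right. The outer 500 kb of that window had 25.0 AA and 26.0 no-AA peaks per Mb, and its core 12.3 and 19.2. In the AA list the core was 0.491 (0.305 to 0.812) times as dense as these ends, while the no-AA interval (0.477 to 1.19) includes 1.

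**Figure D2:**
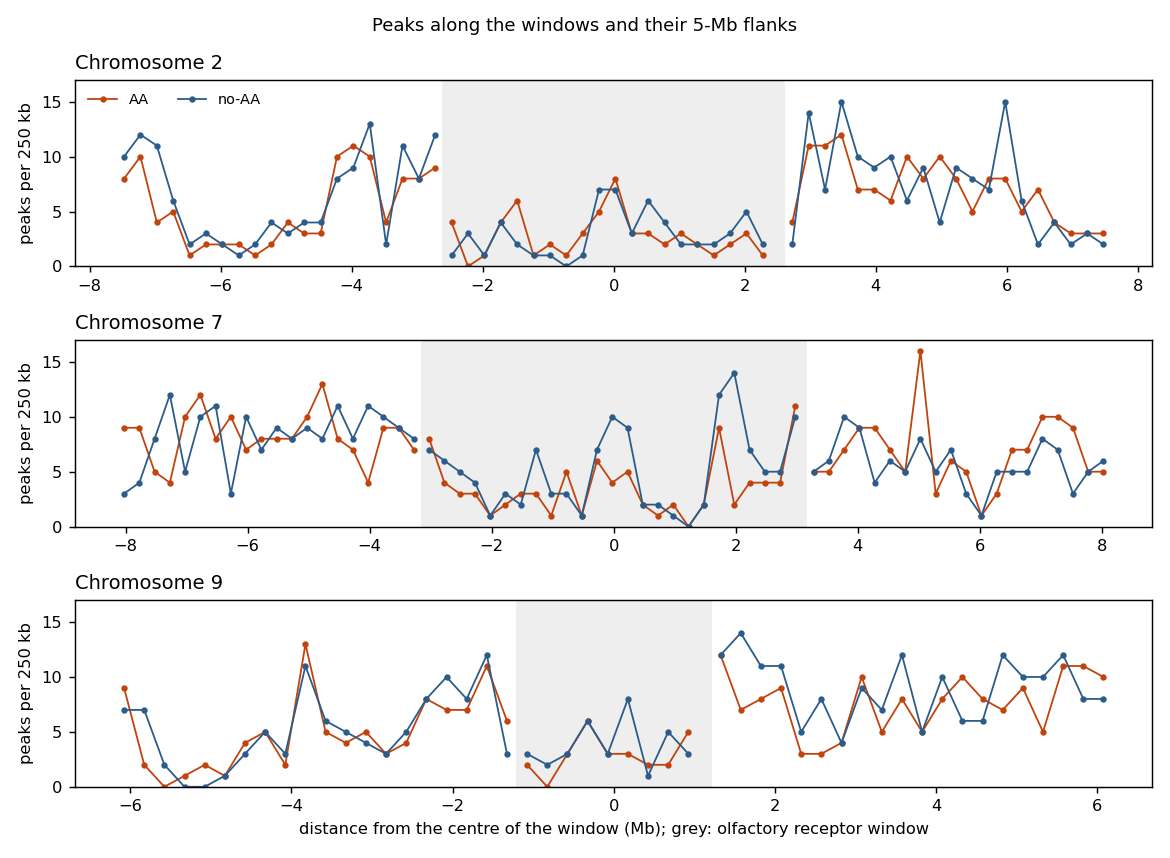
Peaks per bin of 250 kb (vertical axis) against the distance of the bin from the window centre in Mb, with the window in grey and the 5-Mb flanks on both sides. An incomplete last bin of a window is left out. The median bin holds fewer peaks in the chromosome 2 and 9 windows than in their flanks, though the part next to their right ends is not drawn. The chromosome 7 window holds peak-rich bins with up to 14 no-AA peaks.

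The second comparison asked which peaks were missing. The windows lacked weak and tag-rich peaks, but over the 3 windows together no deficit was detected among peaks of very small p. Of the AA members 70 (38.9%) had a p of at most 1e-10, against 22.9% of that whole list, and of the no-AA members 70 (30.3%) against 18.4%. Per Mb this made 5.04 such peaks in each list, against 4.67 and 3.87 in the flanks. The ratios were 1.08 (0.798 to 1.45) and 1.30 (0.954 to 1.77), and both intervals include 1. The windows were not alike in this. On chromosome 2 the ratios were below 1, at 0.687 (0.390 to 1.16) and 0.900 (0.517 to 1.52). On chromosome 7 they were 1.55 (0.963 to 2.48) and 1.69 (0.996 to 2.88), and on chromosome 9 they were 1.11 (0.535 to 2.14) and 1.71 (0.892 to 3.13). The share of such peaks among the AA members of chromosome 2, 33.9%, was below that of the left flank, 37.4%, and its odds ratio to both flanks, 1.75 (0.890 to 3.36), has an interval that includes 1. In the other windows and lists that interval lay above 1. Peaks weaker than this were at 0.361 (0.292 to 0.442) and 0.486 (0.407 to 0.577) times the flank density. At a fold enrichment of at least 10 the windows were denser than the flanks, at 1.39 (1.04 to 1.85) and 1.66 (1.11 to 2.47) times.

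Counted by tags the order was the opposite. Peaks of at least 30 tags, a class set after the values were seen, stood at 0.375 (0.281 to 0.493) times the flank density in the AA list and 0.440 (0.336 to 0.571) in the other. Those under 30 tags stood at 0.575 (0.465 to 0.705) and 0.712 (0.592 to 0.853). The median member held 22 AA or 23 no-AA tags, against 27 in both flanks, and was 897.5 bp or 688 bp long, against 1034 bp and 761 bp. Its fold enrichment was nevertheless higher, at 9.90 and 8.08 against 7.53 and 6.73, and so was its −log10 p, at 8.62 and 7.52 against 6.996 and 6.59. These are the authors' values, set within each library. The chromosome 9 members were the smallest, with medians of 18 and 21 tags, and had the highest median folds, 11.5 and 8.91.

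Both the fold and the p depend on the caller's local background, and more of the folds lay at the floor of that background in the windows. The caller compares a peak with the larger of a regional background and a floor for the whole genome. The floor worked out from the headers (kept tags times fragment length over genome size) was 1.01 tags in the AA and 1.12 tags in the no-AA library. A fold set against it is a whole number of tags divided by that value. To within 0.005, 16.7% and 19.1% of all folds in the lists fell on this grid, where the tolerance takes up only 1.01% and 1.12% of the grid. In the windows it was 37.2% (30.1% to 44.7%) of the AA and 42.0% (35.5% to 48.6%) of the no-AA members, against 11.8% and 14.6% in the flanks and 16.5% and 18.2% in the rest. The odds ratio to the flanks was 4.43 (3.003 to 6.53) and 4.24 (3.02 to 5.95). By window the shares were 45.8% and 43.5% on chromosome 2, 25.6% and 32.8% on chromosome 7, and 54.8% and 68.3% on chromosome 9. At the floor the summit height can be read off the fold. Over the 3 chromosomes together its median was 10 tags in the windows, the flanks and the rest in both lists. On chromosomes 2, 7 and 9 it was 11, 10 and 12 in the AA windows, against 10, 10 and 10.5 in the flanks. In each no-AA window it was 10, against 9.5, 10 and 10. Without a control library this background was drawn from the same library, tags of the peaks included. Under 30 tags, 53.8% of the AA and 55.9% of the no-AA members lay at the floor, against 20.1% and 23.6% in the flanks. With at least 30 tags it was 4.92% and 10.0%, against 1.14% and 1.75%. The part of the background in the counts of peaks was not tested, and the lists hold no tag count outside peaks. How reads that map to several places were treated is not given in the sources used here.

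**Figure D3:**
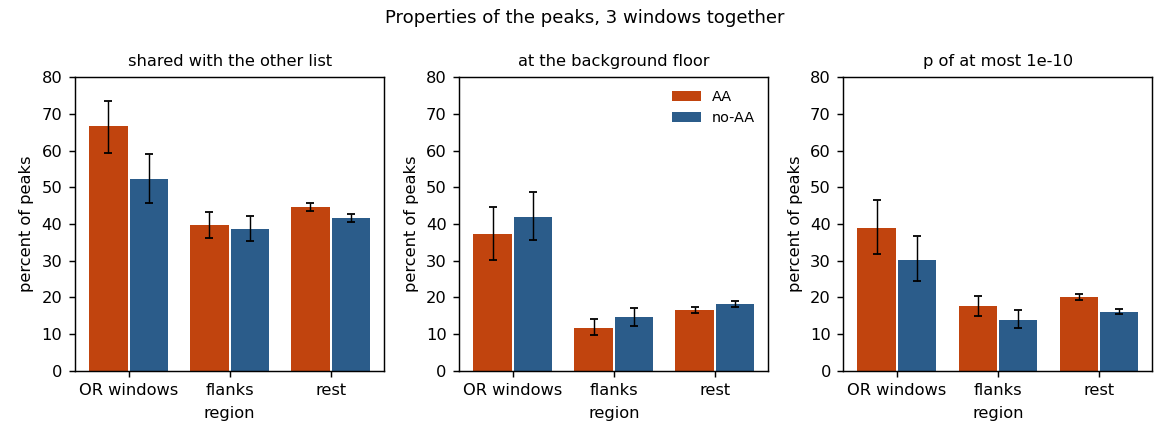
Percent of peaks (vertical axes, from 0) in the 3 olfactory receptor windows, the flanks and the rest of the chromosomes that overlapped a peak of the other list, whose fold lay on the background floor, and whose p was at most 1e-10. Error bars are 95% Clopper-Pearson intervals. In all 3 panels the windows stand highest in both lists.

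The third comparison asked whether the lists had their members at the same places. Of the AA members 120 overlapped a no-AA peak, 66.7% (59.3% to 73.5%), against 47.5% of that whole list. Of the no-AA members 121 were shared, 52.4% (45.7% to 59.0%), against 43.6%. The flanks had 39.7% and 38.6%. The odds ratio to the flanks was 3.03 (2.13 to 4.34) in the AA and 1.75 (1.29 to 2.37) in the no-AA list. Merged over both lists the windows had 288 sites, of which 118 (41.0%) were in both, 60 in the AA list alone and 110 in the other alone. Over all peaks 29.2% of merged sites were in both, and in the flanks 24.2%. Of the sites in a single list, 35.3% (28.1% to 43.0%) were AA sites in the windows, against 48.5% in the flanks and 45.7% over all peaks. By window this was 47.6% on chromosome 2, 31.0% on chromosome 7 and 32.1% (15.9% to 52.4%) on chromosome 9.

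The share was alike over the windows in the AA list, at 66.1% on chromosome 2, 65.6% on chromosome 7 and 71.0% on chromosome 9. In the no-AA list it was 64.5%, 46.1% and 53.7%. On chromosome 7 the no-AA share exceeded that of the flanks (37.9%) by less than counting error (the interval of the odds ratio was 0.895 to 2.19), and 69 of the 110 unshared no-AA members lay there. Sharing rose with strength. Of the members with a p of at most 1e-10, 87.1% (77.0% to 93.9%) of the AA and 77.1% (65.6% to 86.3%) of the no-AA ones were shared, against 76.1% and 79.3% in the whole lists. Of the weaker ones it was 53.6% (43.9% to 63.2%) and 41.6% (33.9% to 49.6%), against 39.0% and 35.5%. Only the AA intervals exclude the value of the whole list in either class. Shared members had medians of 27 and 29 tags and unshared ones 17.5 and 20.

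The fourth comparison, the one the study was designed for, was that of cells with and without AA. The windows held 0.779 (0.638 to 0.951) times as many AA as no-AA peaks, beside 0.960 in the flanks, 0.920 in the rest and 0.906 over all peaks. The interval includes the last 2 of these values, and the ratio of ratios was 0.812 (0.648 to 1.01) to the flanks and 0.847 (0.691 to 1.04) to the rest. On chromosome 2 the ratio was 0.952 (0.655 to 1.38) and on chromosome 9 it was 0.756 (0.458 to 1.24), in both cases within counting error of the flanks. On chromosome 7 it was 0.703 (0.531 to 0.928) against 1.08 (0.914 to 1.28) in the flanks, a ratio of ratios of 0.652 (0.469 to 0.903). Against the rest of chromosome 7, at 0.895, the interval of 0.590 to 1.04 includes 1.

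The bin with the largest excess of no-AA peaks also lay there. In chr7:114600001-114850000, chosen after its values were seen, there were 2 AA and 14 no-AA peaks, and 1 of the 14 was shared. Without it the chromosome 7 ratio was 0.772 (0.578 to 1.03), still below the 1.08 of the flanks, and that of the 3 windows 0.820 (0.669 to 1.00). Over the 54 complete bins the no-AA list had more peaks in 27, the AA list in 14, and 13 were equal. The sign depended on the cutoff. With a p of at most 1e-10 each list had 70 members, and at a fold enrichment of at least 10 there were 82 AA and 47 no-AA ones. The libraries also differed in depth, by 1.55 times, and in fragment length, 229 bp against 165 bp, and with 1 library each these cannot be told apart from AA.

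**Figure D4:**
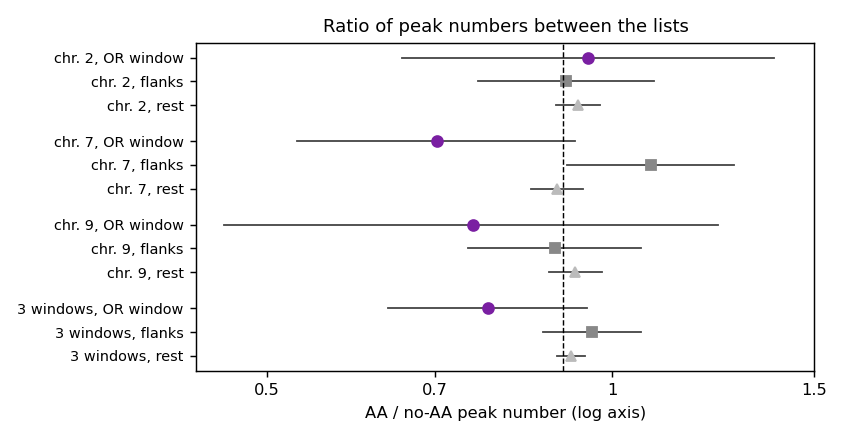
AA over no-AA peak number (horizontal log axis) in each olfactory receptor window, its flanks and the rest of the chromosome, and for the 3 chromosomes together. Lines are 95% exact intervals and the dashed line is the ratio of all peaks, 0.906. The chromosome 7 window, at 0.703, lies below its flanks, at 1.08, and the other windows overlap theirs widely.

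Where both lists had a member, tag density was mostly higher in the AA library, as over the whole genome. In 114 pairs that overlapped one to one, the median was 2.31 AA and 1.88 no-AA tags per kb and 1000000 kept tags. On the log2 scale the median ratio was 0.29 (0.16 to 0.40, over pairs) with quartiles of 0.01 and 0.53, and 86 pairs (75.4%) were higher in the AA library. In the flanks the median was 0.21 over 310 pairs, in the rest 0.22 over 3984, and 0.22 over all 26954 pairs, each inside that interval. By window the medians were 0.36 (36 pairs) on chromosome 2, 0.22 (56 pairs) on chromosome 7 and 0.21 (22 pairs) on chromosome 9. A density over 2-fold higher in the AA library was seen in 3 of the 114 member pairs. In the flanks it was 3 of 310, in the rest 49 of 3984, and over all pairs 1.47%. A density over 2-fold lower was seen in 0 member pairs, against 0.0223% of all pairs. The sign rests on the scaling: without scaling to library size the median was -0.34, and scaled to the tags inside peaks it was -0.24.

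**Figure D5:**
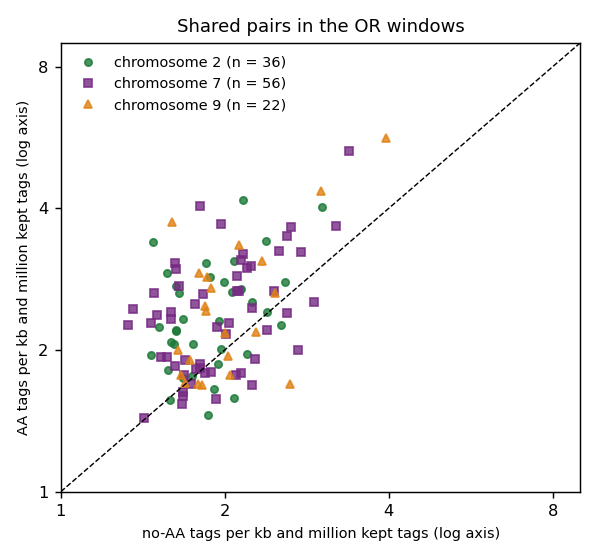
Tag density of the 114 one-to-one pairs in the olfactory receptor windows, in tags per kb and 1000000 kept tags, AA (vertical log axis) against no-AA (horizontal log axis), with equality as the dashed line. Each point is 1 pair, marked by chromosome. Most points, 86 of 114, lie above the line.

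The pairs of highest mean fold enrichment on chromosome 2 lay close together in the middle of the window. The first, chr2:87746174-87747379 in the AA list, had 40 AA tags at 18.8-fold and 25 no-AA tags at 10.7-fold. The second, chr2:87712627-87713466, had 27 tags at 15.5-fold and 34 tags at 13.0-fold. The third, chr2:88080929-88082250, had 44 tags at 16.98-fold and 48 tags at 11.5-fold. In each of the 3 the interval of the density ratio included 0 on the log2 scale.

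On chromosome 7 the first such pair, chr7:113807716-113808380, lay at the right end of the longest stretch of the window without a no-AA peak (349.6 kb). It had 20 AA tags at 13.9-fold and 34 no-AA tags at 16.01-fold. Next were chr7:114614632-114615767 with 44 tags at 13.7-fold and 37 at 14.1-fold, and chr7:109943076-109943968 with 34 at 15.5-fold and 40 at 11.3-fold. On chromosome 9 the 3 pairs all lay in the right part of the window. They were chr9:39546934-39547884 (20 tags at 15.8-fold and 26 at 16.9-fold), chr9:39693326-39694210 (23 at 15.8-fold and 22 at 13.3-fold) and chr9:39882215-39882949 (19 at 15.8-fold and 49 at 11.4-fold). The last lay 17.4 kb from the right end of the window. In all 3 the AA fold was the same, 15.84, which lies on the grid of the background floor. The no-AA folds of 16.9 and 13.34 lie on that grid as well, and the 11.42 of the last pair does not.

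The highest density ratio on each chromosome was over 2-fold, and no lowest one was past 2-fold. On chromosome 7 it was at chr7:112581887-112584414, the longest AA member (2528 bp), with 122 tags against 49 in the no-AA list, a log2 ratio of 1.17 (0.68 to 1.68). On chromosome 9 it was chr9:39338730-39339581, with 38 and 19 tags and 1.23 (0.40 to 2.11). On chromosome 2 it was chr2:87901535-87901979, with 18 and 15 tags and 1.20 (0.13 to 2.29). The lowest were -0.39 (-1.29 to 0.47) at chr2:86186226-86187232, -0.44 (-1.21 to 0.31) at chr7:114543343-114544473 and -0.64 (-1.71 to 0.35) at chr9:38944479-38945123. All 3 of these intervals include 0. They are the ends of 114 pairs, and no allowance for that choice was made in the intervals.

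The unshared members of highest fold show how strong a peak could be in a single list. On chromosome 2 they were chr2:85140058-85141224 in the AA list, with 32 tags (21.9 to 45.2) at 14.2-fold, and chr2:87287277-87288042 in the other, with 33 tags (22.7 to 46.3) at 11.4-fold. On chromosome 7 they were chr7:111114928-111116203, with 40 tags (28.6 to 54.5) at 16.9-fold, and chr7:111803906-111804680, with 36 tags (25.2 to 49.8) at 14.2-fold. On chromosome 9 they were chr9:38358890-38359786, with 31 tags (21.1 to 44.0) at 16.4-fold, and chr9:37963213-37964192, with 38 tags (26.9 to 52.2) at 13.3-fold. The nearest peak of the other list was 8.72 kb to 84.1 kb away. A region missing from a list was not called there, and its tags are not given.

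The tag-richest member of each list, named after its values were seen, was a shared one on chromosome 7. At chr7:115169442-115171679 the AA list had 141 tags at 9.18-fold, and its no-AA counterpart had 137 tags at 9.16-fold. The flanks reached 582 and 578 tags, both on chromosome 9.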

How the data were processed

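5hmC-bearing DNA of mouse ES cells was captured through a biotin tag and sequenced, 1 library with AA and 1 without, per the labels. The submitters' processing notes name BWA 0.5.9-r16, MACS 1.4.2 and build mm9. Per the file headers, each list was called without a control library at a p cutoff of 1e-05, with a regional background over 10000 bp. The deposited tag counts are whole and unscaled. The deposited −log10 p-values are given times 10, and the deposited fold enrichment is a ratio to the caller's background.

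Windows were read from the given rule, and flanks were 5 Mb on each side. The rest of a chromosome ran from its first to its last peak in either list, without window and flanks. Peaks overlapping by at least 1 bp were shared. Intervals are 95% exact: Poisson (a density), Clopper-Pearson (a share), conditional (a ratio or odds ratio) and order statistics (a median over pairs). Regions were named by rule: in each window the 3 pairs of highest mean fold, the extreme density ratios, the unshared peak of highest fold in each list, the longest peak-free stretch, and the fullest and emptiest bins of 250 kb. Members and rules were chosen with earlier results of these data known. Receptor genes were taken by symbol (Olfr), and blocks were joined over at most 25 other coding genes. The code was tested on simulated data. Python 3.11.15, pandas 2.3.3, NumPy 2.4.6, SciPy 1.17.1 and matplotlib 3.10.9 were used.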

Additional observations from a re-analysis of the deposited data

How the results depend on the processing

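A paired fit needs 2 or more libraries in a group. No paired analysis was possible because AA and no AA had a single library each. There were 218 alternative values for 32 results. Of these, 141 stayed within the interval of the reported value, 37 moved out of it without a change of a called sign, and 40 changed a called sign. Exchanging the lists, an alternative counted here for ratios between them, turns the sign by construction. A changed sign is that of the value alone. Its own interval can include equality, as in the AA ratio of 1.08 (0.798 to 1.45) to the flanks with a p of at most 1e-10. Where a value moved, the cause was not tested.

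Density ratios of windows to flanks or rest are log2 values here, 0 meaning equal, and 96 of 124 alternatives were below 0. With a p of at most 1e-10 the ratio to the flanks was 0.11 (AA) and 0.38 (no AA) over the 3 windows, 0.63 and 0.76 on chromosome 7, and 0.15 and 0.77 on chromosome 9, but still below 0 on chromosome 2 (-0.54 and -0.15). To the rest it was 0.16 and 0.36 over the windows, -0.27 and 0.14 on chromosome 2, 0.53 and 0.35 on chromosome 7, and 0.093 and 0.73 on chromosome 9. With a fold of at least 10 the ratio to the flanks was 0.48 and 0.73, by chromosome 0.31 and 0.53 (2), 0.39 and 0.74 (7), and 0.99 and 1.22 (9). To the rest it was 0.41 and 0.57, and by chromosome 0.28 and -0.06 (2), 0.40 and 0.74 (7), and 0.79 and 1.26 (9). With at least 30 tags, chosen after seeing the data, it was -1.41 and -1.18 to the flanks and -1.15 and -1.05 to the rest. By bases covered it was -1.04 to the rest (AA), and with flanks of 2 Mb it was -0.98 (no AA). Leaving out each window in turn, also chosen after seeing the data, gave -1.03 to -0.53 to the flanks and -0.91 to -0.33 to the rest for no AA.

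The log2 ratio of AA to no-AA peak number (-0.36, chromosome 7 -0.51) became 0 and 0.25 with a p of at most 1e-10, 0.80 and 0.65 with a fold of at least 10, and 0.36 and 0.51 with the lists exchanged. Counting overlaps only between peaks that pass 1e-10, 54.3% of the 70 AA members that pass were shared. With all peaks counted, leaving out a window gave 47.9% to 60.2% for no AA. The median log2 tag density ratio of pairs was 0.56 per peak in place of per kb. Unscaled it was -0.34 (chromosome 2 -0.27, chromosome 7 -0.41), scaled to tags in peaks -0.24 (-0.17 and -0.31), and with the lists exchanged -0.29 (-0.36 and -0.22).

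The lists hold only called peaks, so a difference below the cutoff cannot be seen in them. Windows of 31 to 128 members per list leave counting intervals too wide for a modest difference between the lists.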
